A study of Mus musculus with 2 samples.

Results

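The Nrf2 and glutathione redox genes are a set of 10 mouse genes: the transcription factor gene Nfe2l2, which encodes Nrf2, its inhibitor Keap1, and the antioxidant targets Nqo1, Hmox1, Gclc, Gclm, Slc7a11, Txnrd1, Srxn1 and Prdx1. They were found as the probe sets for which the platform annotation gives a single gene symbol and that symbol is a member, a rule that uses no measured value. This gave 19 probe sets of 9 genes, out of 34945 single-gene probe sets of 18193 genes. No probe set lists Prdx1 alone: 5 probe sets list it together with a second gene, Gm21399, and were left out of the counts. A probe set is a group of short oligonucleotides on the array that are read together as 1 signal, and 932 probe sets list several genes.

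RNA was measured in Mle29c cells and in Mlesico cells, both called epithelial cell lines in the labels and both grown in DMEM with 10% FBS, with 1 array for each line. The series title concerns miR-29c in pulmonary fibrosis; the labels say neither how the lines were made nor whether miR-29c is raised in Mle29c cells. Every difference is a log2 ratio, the Mle29c value minus the Mlesico value, so that a positive ratio means a stronger signal in Mle29c cells. The deposited values are centred on the midpoint of both arrays, so the level of a transcript is not in them, and the values of a probe set on the 2 arrays are equal in size and opposite in sign. Each line has a single array, so the spread between cultures is unknown, no test could be made and no p-value is given. The spread between probe sets of a gene was taken as the error inside the arrays: pooled over 6905 genes it had an SD of 0.62 in log2 ratio. In these bulk RNA samples, fewer cells of a type and less RNA per cell cannot be told apart.

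Nrf2 is a transcription factor of the cap'n'collar family that is made continuously and destroyed quickly. Keap1 is the adaptor through which a cullin ubiquitin ligase marks Nrf2 for degradation, and reactive molecules that modify cysteines of Keap1 let Nrf2 escape, enter the nucleus, pair with a small Maf protein and bind antioxidant response elements. Its targets import cystine, build glutathione, reduce thioredoxin and peroxiredoxins and detoxify quinones and haem. In the lung, epithelial cells face inhaled oxidants and the pathway is known as one of their main inducible defences.

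The sequences below show the microRNA in the title and the promoters of the 3 members that are most useful for reading the values. These are the pair with the lowest ratios, and Srxn1, a target with 2 motif matches and a ratio near 0. The mature mmu-miR-29c-3p has 22 bases and lies at chr1:195037600-195037621 on the plus strand of GRCm38.p6, with the seed, bases 2 to 8, in capitals. The promoters are the 250 bases before a RefSeq start, from the same build and written 5′ to 3′ on the strand of the gene: chr2:75704664-75704913, minus strand, for Nfe2l2, chr3:50443614-50443863, minus strand, for Slc7a11, and chr2:152105274-152105523, plus strand, for Srxn1. Capitals mark matches to the core of the antioxidant response element, searched as TGACNNNGC and TGAGNNNGC on both strands; these 2 patterns cannot match the same bases on 1 strand.
mmu-miR-29c-3p: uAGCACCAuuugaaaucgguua
Nfe2l2 promoter: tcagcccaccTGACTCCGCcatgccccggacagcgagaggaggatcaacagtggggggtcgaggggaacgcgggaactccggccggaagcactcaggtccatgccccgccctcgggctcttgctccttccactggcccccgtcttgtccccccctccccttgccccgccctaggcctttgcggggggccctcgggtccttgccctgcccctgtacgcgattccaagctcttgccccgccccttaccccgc
Slc7a11 promoter: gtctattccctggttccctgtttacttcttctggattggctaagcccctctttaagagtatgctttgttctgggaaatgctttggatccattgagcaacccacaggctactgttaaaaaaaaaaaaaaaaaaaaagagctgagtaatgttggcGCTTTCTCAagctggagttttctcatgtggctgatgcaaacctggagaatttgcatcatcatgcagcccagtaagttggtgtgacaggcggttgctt
Srxn1 promoter: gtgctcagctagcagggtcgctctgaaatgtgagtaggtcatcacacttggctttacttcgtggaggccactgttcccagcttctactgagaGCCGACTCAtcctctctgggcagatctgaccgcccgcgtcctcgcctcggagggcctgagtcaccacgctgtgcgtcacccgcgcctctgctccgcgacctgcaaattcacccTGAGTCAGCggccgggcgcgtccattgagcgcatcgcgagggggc

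Promoter windows were found in the RefSeq table for 8 of the 10 members, with 10 windows because Txnrd1 has several starts. The Slc7a11 window lies inside the span of that gene, chr3:50364936-50499087, and so belongs to an internal start. A match stood in 6 of the 10 windows, belonging to Nfe2l2, Slc7a11, Gclm, Txnrd1, Prdx1 and Srxn1, and of these only Srxn1 had more than 1. Of all 32851 windows of this length, 23.0% held a match to either pattern. In Srxn1 the match nearest the start lay at positions -45 to -37 and read TGAGTCAGC; in Slc7a11 the match lay at -97 to -89 and in Nfe2l2 at -240 to -232. A match is a run of letters and not a shown binding site. Measured genes with a match had ratios from -1.22 in Slc7a11 to 0.04 in Txnrd1, and those with a window but no match, Nqo1 and Keap1, stood at 0.11 and 0.24. Txnrd1 had its match in the window at chr10:82858956-82859205 and none in its other windows. Bases outside the windows were not searched, so a window without a match does not show that a gene lacks the element. With so few genes, a link between matches and ratios was not tested.

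Among the members, the gene values of Nfe2l2 and of the cystine transporter gene Slc7a11 were at least 2-fold lower in Mle29c cells, and none was 2-fold higher. Each passed 2-fold through 1 middle-class probe set, and the high-class probe set of Nfe2l2 stood at -0.37. The 2 lower genes had log2 ratios of -1.22 (Slc7a11) and -1.03 (Nfe2l2), a 2.32-fold and a 2.05-fold lower signal. The other 7 measured members lay within 1.5-fold, between -0.54 for Gclm and 0.30 for Hmox1. Across the whole array 7.18% of 14831 measured genes were at least 2-fold lower and 8.41% at least 2-fold higher, and 68.3% lay within 1.5-fold. With every probe set kept, 1 member was lower (background 10.9%) and 0 higher (12.4%). High-class probe sets alone gave 0 lower (5.23%) and 0 higher (6.41%), as did a 4-fold threshold (2.31% and 2.66%). At 1.5-fold 2 were lower (15.1%) and 0 higher (16.6%), and reading the values as natural logs also gave 2 lower (12.2%) and 0 higher (13.7%). The members' median log2 ratio was -0.09, against 0.00 over all measured genes, with 4 members above 0 and 5 below. A gene counts as measured if any of its probe sets fell in a middle or high class of signal, and its ratio is the median over those probe sets. If the values are log2, the high class stands for a mean signal of 256 or more. The middle class then stands for 16 to 256 and the low class for less, as recovered from the rounding of the deposited numbers. A class rests on the sum of a probe set's 2 values or, where that sum is 0, on their rounding step. The step is less certain, as it can call a probe set of a lower class high. It called 12638 probe sets high and 5317 middle, where the sum called 6841 high and 9063 middle. Some probe sets called high from the step may thus lie below 256.

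**Figure D1:**
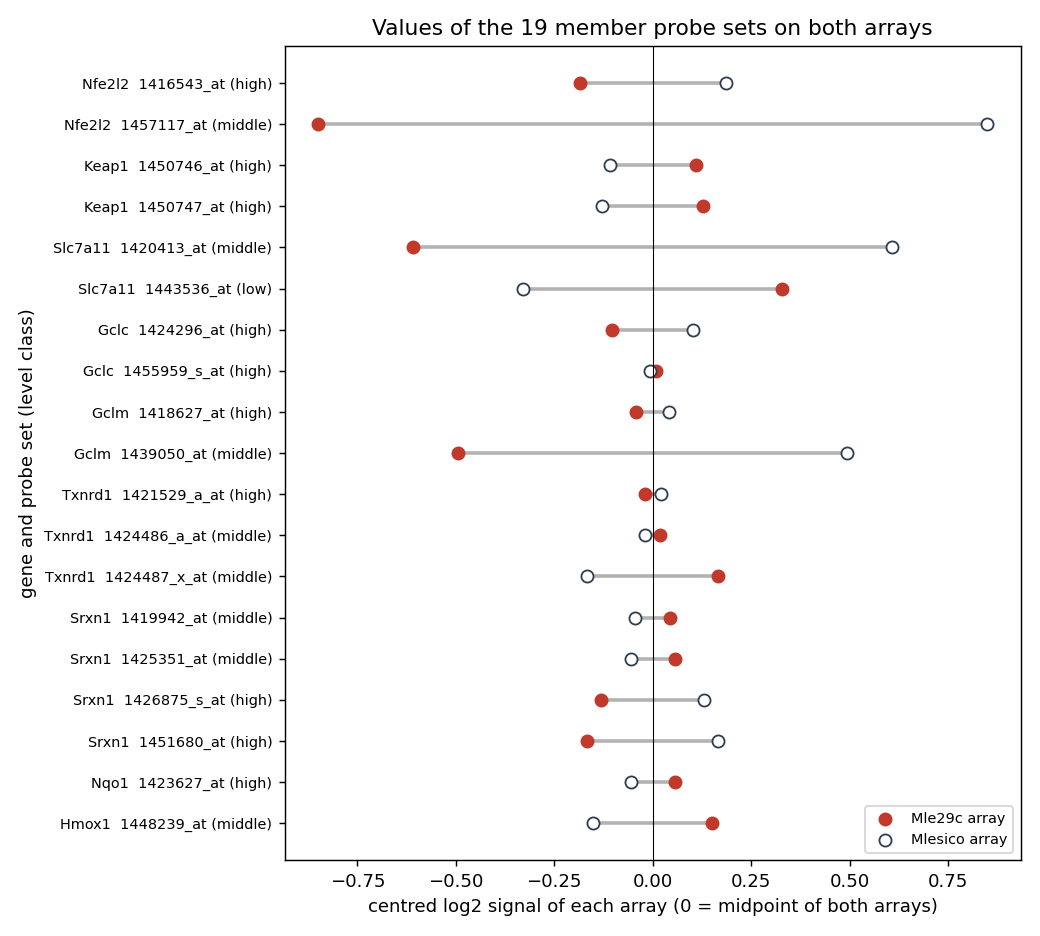
Centred log2 signal (horizontal axis, no unit) of each of the 19 member probe sets on the Mle29c array (filled red) and the Mlesico array (open), 1 row per probe set with its level class; there are no replicates and no error bars. The widest gaps are those of an Nfe2l2 probe set, at -0.85 in Mle29c and 0.85 in Mlesico, and of an Slc7a11 probe set, at -0.61 in Mle29c and 0.61 in Mlesico.

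Nfe2l2, at chr2:75675513-75704663 in GRCm38.p6, was read by 2 probe sets that both had the weaker signal in Mle29c cells but differed in size. Probe set 1457117_at, of the middle class, stood at -0.85 in Mle29c cells and at 0.85 in Mlesico cells, a log2 ratio of -1.70. Probe set 1416543_at, called high, stood at -0.19 in Mle29c cells and at 0.19 in Mlesico cells, a ratio of -0.37. The ratio of -1.03 is the midpoint of these, and its place past 2-fold depends on the first probe set. With high-class probe sets alone Nfe2l2 stood at -0.37, and with classes from the sum only it stood at -1.70. The high class of 1416543_at rests on the less certain rounding step, and the middle class of 1457117_at on the sum. The distance of 1.33 between them was wider than in 84.4% of the 6905 genes with 2 or more measured probe sets. Both probe sets place Nfe2l2 lower in Mle29c cells, and the difference from 0 of the high-class one is smaller than the SD of 0.62 between probe sets.

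Keap1 (chr9:21229730-21239332), which holds Nrf2 in the cytoplasm and directs its degradation, had the closest pair of probe sets in the set. Both were called high. Probe set 1450747_at stood at 0.13 in Mle29c cells and -0.13 in Mlesico cells, and 1450746_at at 0.11 in Mle29c cells and -0.11 in Mlesico cells. The ratios were 0.26 and 0.22, a 1.18-fold stronger signal in Mle29c cells at the median of 0.24. This is smaller than the SD between probe sets, and 35.4% of all measured genes had a ratio of smaller size.

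The supply of glutathione begins with cystine, which Slc7a11 carries into the cell in exchange for glutamate. Slc7a11, at chr3:50364936-50499087, had probe sets on opposite sides of 0. Probe set 1420413_at, of the middle class, stood at -0.61 in Mle29c cells and 0.61 in Mlesico cells, a ratio of -1.22. Probe set 1443536_at, of the low class, stood at 0.33 in Mle29c cells and -0.33 in Mlesico cells, a ratio of 0.66. The second was left out of the gene's value as a weak signal; with it the ratio of Slc7a11 was -0.28. Of all low-class probe sets with a single gene, 57.7% differed by 2-fold or more in either direction, against 22.8% in the middle class and 10.5% in the high class.

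Glutamate-cysteine ligase, the rate-limiting enzyme of glutathione synthesis, is made of a catalytic subunit encoded by Gclc and a modifier subunit encoded by Gclm. Gclc (chr9:77754535-77794489) was nearly equal in both lines, with high-class probe sets at -0.20 (1424296_at) and 0.02 (1455959_s_at) and a median ratio of -0.09. Gclm (chr3:122245487-122267215) had a high-class probe set, 1418627_at, at a ratio of -0.08 and a middle-class one, 1439050_at, at -0.99. The middle-class probe set stood at -0.49 in Mle29c cells and 0.49 in Mlesico cells, just inside 2-fold. Its median of -0.54 corresponds to a 1.45-fold lower signal, and the high-class probe set alone gave -0.08.

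Txnrd1 (chr10:82833951-82897724) encodes the cytosolic thioredoxin reductase, a selenoprotein that keeps thioredoxin reduced with NADPH. Its 3 probe sets had ratios of -0.04 (1421529_a_at), 0.04 (1424486_a_at) and 0.33 (1424487_x_at), with a median of 0.04. Only 5.96% of measured genes had a ratio of smaller size. Srxn1 (chr2:152105524-152111376) encodes sulfiredoxin, which restores peroxiredoxins that have been oxidised to sulfinic acid. Its 4 probe sets split evenly: the high-class ones stood at -0.33 (1451680_at) and -0.26 (1426875_s_at), and the middle-class ones at 0.09 (1419942_at) and 0.11 (1425351_at). Both high classes rest on the less certain rounding step and both middle classes on the sum. The median of -0.09 lies between these pairs, and the 4 ratios span less than the SD between probe sets.

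Nqo1 (chr8:107388225-107403205) encodes a quinone reductase that is a standard readout of Nrf2 activity. Its single probe set 1423627_at, called high, stood at 0.06 in Mle29c cells and -0.06 in Mlesico cells, a ratio of 0.11 or 1.08-fold. Hmox1 (chr8:75093618-75100593) encodes haem oxygenase 1, which opens the haem ring and releases iron, biliverdin and carbon monoxide. Its single probe set 1448239_at, of the middle class, stood at 0.15 in Mle29c cells and -0.15 in Mlesico cells, a ratio of 0.30 or 1.23-fold. Both lay above 0 in Mle29c cells by less than the SD between probe sets. The 5 probe sets that list Prdx1, a cytosolic peroxiredoxin gene, together with Gm21399 had ratios from -0.19 to 0.38 with a median of 0.01; the arrays do not say which of the genes these values belong to.

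**Figure D2:**
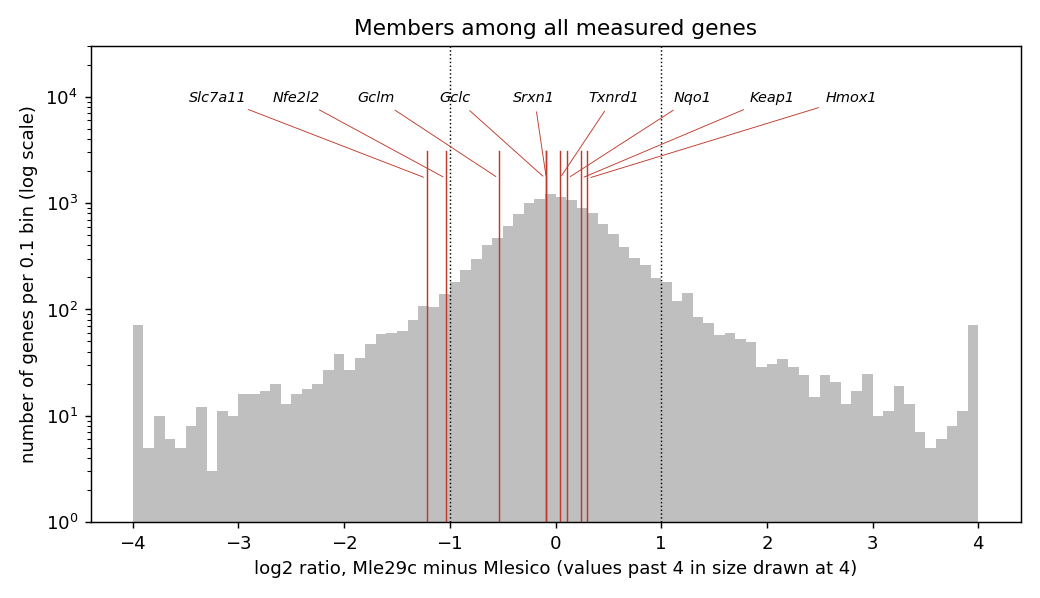
Number of measured genes per bin of 0.1 in log2 ratio, Mle29c minus Mlesico (grey, log-scaled vertical axis, 14831 genes), with the 9 members as red lines and 2-fold as dotted lines. Slc7a11 and Nfe2l2 lie beyond the left dotted line at -1.22 and -1.03, and 6 members lie between -0.09 and 0.30 in the middle of the distribution.

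Probe by probe, 10 of the 19 member probe sets had the stronger signal in Mle29c cells and 9 the weaker. At 2-fold, 2 were lower and 0 higher, against 11.7% lower and 12.7% higher over all 34945 single-gene probe sets. By class, 10 were high, 8 middle and 1 low. For 8 of the 19 the class rests on the rounding step, the less certain reading, which can call a weaker probe set high. Of the 6 members with 2 or more measured probe sets, 3 (Nfe2l2, Keap1 and Gclm) had probe sets that shared a direction throughout, against 56.2% of all such genes. By ratio the members ran, from low to high, Slc7a11, Nfe2l2, Gclm, Gclc, Srxn1, Txnrd1, Nqo1, Keap1 and Hmox1; no neighbours in this order differed by more than the SD between probe sets. The members lie on chromosomes 2, 3, 4, 8, 9 and 10, whose median log2 ratios were between -0.08 and 0.07, and set against the chromosome median Slc7a11 stood at -1.14 and Nfe2l2 at -1.03.

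**Figure D3:**
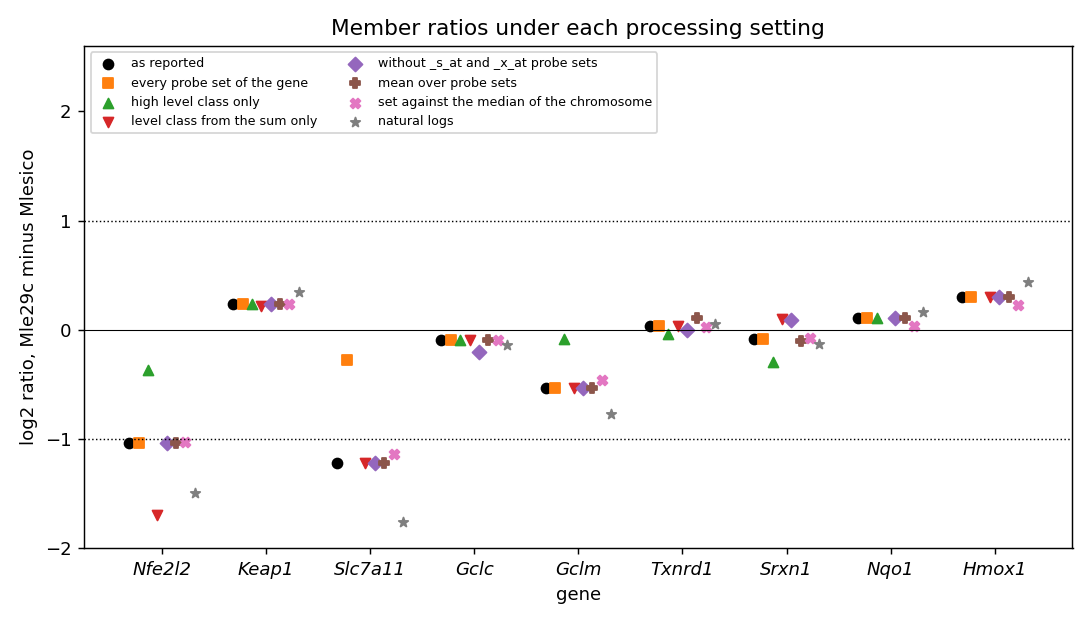
Log2 ratio (vertical axis, Mle29c minus Mlesico) of each member as reported (black) and under 7 other settings (coloured markers), with 2-fold as dotted lines. Nfe2l2 ranges from -1.70 to -0.37 and Slc7a11 from -1.76 to -0.28, while Keap1, Nqo1 and Hmox1 keep to values above 0.

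The wider redox system was described with 9 lists of 154 genes picked for known function, of which 127 were measured. Their median log2 ratio was 0.03; 103 lay within 2-fold, 10 were higher than that in Mle29c cells and 14 lower. The shares for all measured genes given above are the background for each list. Values in the paragraphs that follow are log2 ratios of Mle29c over Mlesico, and a gene with 1 probe set is said to have 1.

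Among 14 measured genes that partner with, compete with or degrade Nrf2, the median was -0.01, and 2 lay past 2-fold on the higher side and 1 on the lower. Maff, a small Maf gene whose product pairs with Nrf2, stood at 1.56 in 1 high-class probe set. Nfe2l3, a relative of Nrf2, had 3 probe sets between 0.98 and 1.39 and a median of 1.35. Dpp3, a peptidase gene whose product can bind Keap1, stood at -1.31, but its probe sets were far apart at -2.30 and -0.33. Named after their values were seen, Cul3, the scaffold of the Keap1 ligase, stood at -0.50 with 5 probe sets between -0.64 and -0.22, and the other small Maf genes Mafg and Mafk stood at 0.21 and -0.28. Bach1, a repressor that competes for the same elements, was named in the same way and stood at 0.06. Maff lies on chromosome 15 and Nfe2l3 on chromosome 6, whose median log2 ratios were 0.36 and 0.32; against these they stood at 1.20 and 1.03.

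Genes that supply, recycle or break down glutathione had 1 of 14 higher and 1 lower, with a median of 0.04. Glrx, which encodes the cytosolic glutaredoxin that removes glutathione from protein thiols, stood at 4.27, a 19.3-fold stronger signal, with its 2 middle-class probe sets at 4.36 and 4.18. On these probe sets the centred values were 2.18 and 2.09 in Mle29c cells and -2.18 and -2.09 in Mlesico cells. A gap that wide in the middle class can put the Mlesico signal near the low class, so the size is less certain than the direction on these arrays. Oplah, the 5-oxoprolinase gene of the glutathione cycle, stood at -1.85 in 1 probe set. Of the steps next to the members, Gss, glutathione synthetase, stood at -0.31, Gsr, glutathione reductase, at 0.14, and Slc3a2, the heavy chain that partners with Slc7a11, at -0.08. Slc1a4, of the same list, stood at -0.96 with 3 probe sets between -1.41 and -0.36, and Cth and Slc1a1 had no measured probe set. Gss, Gsr, Slc3a2, Slc1a4, Cth and Slc1a1 were named after their values were seen.

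Glutathione peroxidases had 1 of 7 higher and 2 lower, with a median of 0.12. Gpx7 and Gpx8, peroxidases of the endoplasmic reticulum, stood at -2.03 and -1.68, and Gpx6 stood at 1.28, each from 1 probe set. Gpx4, which reduces lipid hydroperoxides and was named after its value was seen, stood at 0.57 in 2 probe sets at 0.50 and 0.64. Glutathione transferases had the highest median of the 9 lists, 0.44, and 14 of its 18 genes (77.8%) lay above 0, against 50.4% of all measured genes. By 2-fold or more 3 were higher and 1 lower; of the 3, Gsto2, named after its value was seen, stood at 1.21, and at 0.94 against the median of chromosome 19. Gstt3 stood at 2.13, Mgst2, a membrane-bound transferase, at 1.35, and Gsta4, which conjugates the lipid aldehyde 4-hydroxynonenal, at -1.24, each from 1 probe set. Several of the list's genes belong to clusters of similar sequence, chiefly the mu class on chromosome 3, and signal shared between them was not tested.

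Thioredoxins, peroxiredoxins, sestrins and methionine sulfoxide reductases had 1 of 17 higher and 1 lower, with a median of 0.08. Sesn3, a sestrin gene, stood at 1.52 with probe sets at 1.53 and 1.51, and Nxn, which encodes nucleoredoxin, stood at -1.26 with probe sets at -1.52 and -1.01. Txn1, the thioredoxin that Txnrd1 reduces, was named after its value was seen and stood at -0.34. Enzymes of the pentose phosphate pathway and of other routes of NADPH supply, the reductant behind both the glutathione and the thioredoxin branch, had 0 of 14 higher and 2 lower, with a median of -0.05. Tkt, the transketolase gene of the branch of the pentose phosphate pathway that does not itself make NADPH, stood at -1.32, with all 3 probe sets between -1.56 and -1.24. Aldh1l1, a folate enzyme gene, stood at -1.39 in 1 measured probe set. Pgd, which encodes an NADPH-producing dehydrogenase of the same pathway as Tkt and was named after its value was seen, stood at -0.49, with 4 probe sets between -0.60 and -0.48.

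Genes of haem breakdown and iron had 1 of 13 higher and 1 lower, with a median of -0.16. Slc40a1, the iron exporter ferroportin, stood at -2.06, though its probe sets were at -3.31 and -0.80. Slc48a1, a haem transporter gene, stood at 1.12 with probe sets at 1.17 and 1.07; it lies on chromosome 15, and against that chromosome's median it stood at 0.76, inside 2-fold. Superoxide dismutases, catalase and NADPH oxidases had 0 of 10 higher and 1 lower, with a median of -0.18. The lower gene was Ncf1, an oxidase subunit of phagocytes, at -1.44 in 1 measured probe set whose high class rests on the rounding step. Its low-class probe sets stood at -0.70 and 0.67, on opposite sides of 0, and with them kept Ncf1 stood at -0.70.

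Other reported Nrf2 targets had 1 of 20 higher and 4 lower, with a median of -0.12. Ptgr1, a reductase of prostaglandins and lipid aldehydes, stood at 4.67, a 25.4-fold stronger signal in Mle29c cells, in 1 probe set called high. That class rests on the less certain rounding step, so the size for Ptgr1 may have the limit given for Glrx. Abcg2, an efflux pump of the ABC family, stood at -3.87 and Akr1c13, an aldo-keto reductase gene, at -2.72, each from 1 probe set. The size of Abcg2, in the middle class, has the same limit as that of Glrx. For Akr1c13 the high class rests on the rounding step, as for Ptgr1. The other lower genes, named to complete the count, were Akr1b8 at -1.04 and Aldh3a1 at -1.16, or -0.92 against the median of chromosome 11. The ratios of established targets thus ran in both directions, with the members Nqo1 and Hmox1 near 0.

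**Figure D4:**
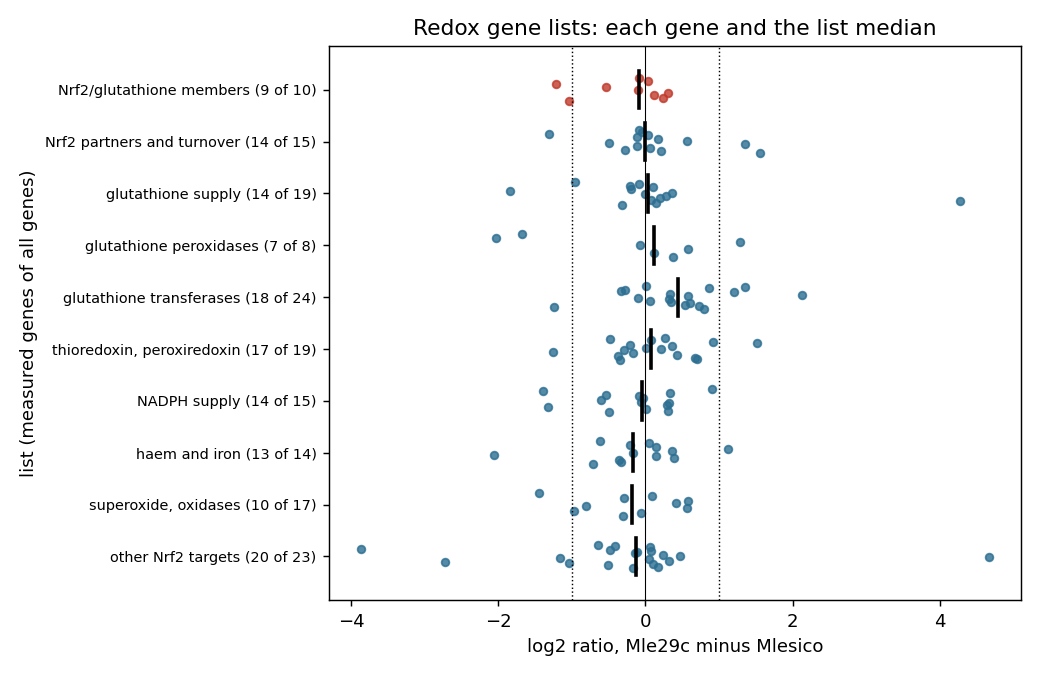
Log2 ratio of each measured gene (points, Mle29c minus Mlesico) in the member set (red) and the 9 wider redox lists (blue), with list medians as black bars and 2-fold as dotted lines; vertical scatter within a row only separates points. List medians lie between -0.18 and 0.44, and single genes reach -3.87 (Abcg2) and 4.67 (Ptgr1).

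As a check of the labels, 7 of 8 general epithelial markers were measured, with Krt8 and Krt19 in the high class and Epcam and Cdh1 in the middle class. Of the 7, 2 lay above 0, Cdh1 at 1.46 and Krt8 at 0.63, and 5 below: the splicing factor gene Esrp1 at -4.51, Epcam at -0.52, Krt18 at -0.20, Cldn7 at -0.09 and Krt19 at -0.06. Alveolar type 2 markers, 11 of them measured, ranged from 0.02 to 3.26. Past 2-fold, 6 of these had the stronger signal in Mle29c cells and 0 the weaker. For every marker list here the background is 8.41% higher and 7.18% lower past 2-fold over all 14831 measured genes. Markers of other cell types were measured for 7 of 8 fibroblast genes (range -3.41 to 1.55), 5 of 8 macrophage and leukocyte genes (-0.99 to 2.88) and 4 of 6 endothelial genes (-1.57 to 1.40). Past 2-fold, each of these lists had 1 higher gene: Col3a1 (fibroblast) at 1.55, Marco (macrophage) at 2.88 and Vwf (endothelial) at 1.40. The fibroblast and endothelial lists also had 1 lower gene each, Col1a1 at -3.41 and Tek at -1.57, and the macrophage list had 0 lower. The pan-leukocyte gene Ptprc had no measured probe set. Since the deposited values hold no levels, summed levels of these lists cannot be given, and their part in the redox ratios was not tested.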

How the data were processed

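Trizol-extracted RNA of Mle29c and Mlesico cells was made into biotinylated cRNA and hybridised, 1 array per line, per the labels' protocols. Signals were summarised with MAS5, per the submitters' processing notes, in a version not stated there. The authors deposited log values, taken here as log2 since the base is not stated, for 45101 probe sets; the 2 values of each sum to 0 within 1e-06 and both column medians are 0. No spread between replicates exists, and the number of arrays limits the precision.

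Log2 ratios were Mle29c minus Mlesico. Level classes came from the single-precision rounding of the values. A row sum within 6% of a full step meant high, of the next finer step middle, and a still smaller sum low. Rows summing to 0 were classed from the step to a tolerance of 0.02 steps, which can call a row of a lower class high. The 161 rows at 0 on both arrays were called tied. Gene symbols came from the 2016 platform annotation, updated by gene number through GRCm38.p6 RefSeq names (34741 of 34945 found). A gene's ratio was its median over middle and high class probe sets. Genes were counted at 2-fold, with no test. Named genes were all members, and per list up to 2 of the highest and 2 of the lowest past 2-fold; others are marked as named after their values were seen, except markers of cell types, which come from lists of their own. The members and lists were chosen with earlier results of these data known. Scripts ran in Python 3.11.15 with pandas 2.3.3. Alternatives were other probe set filters, the mean, chromosome centring, other fold thresholds and natural logs.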

Additional observations from a re-analysis of the deposited data

How the results depend on the processing

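No paired analysis was possible because each line has 1 array, and no array could be left out. No member was at least 2-fold higher under any of the 9 alternatives run, and no member past 2-fold changed direction. Much of this was fixed in advance. The highest member probe set stood at 0.66, so no probe set filter, mean or 4-fold threshold could give a member past 2-fold higher. Both Nfe2l2 probe sets lay below 0, so no filter or mean could reverse that gene. The number of members at least 2-fold lower was 2 as reported, 1 with every probe set kept, where Slc7a11 stood at -0.28, 0 with high-class probe sets only, where Nfe2l2 stood at -0.37 and Slc7a11 had none, and 0 at 4-fold. With the class taken from the sum only, Nfe2l2 stood at -1.70. Members near 0 took either sign: Srxn1 stood at 0.10 with the class from the sum and 0.09 without shared probe sets, and Txnrd1 at -0.04 in the high class. Hmox1 had no high-class probe set and Nqo1 none classed from the sum. Over the wider lists, 10 genes were higher and 14 lower of 127 as reported (8.41% and 7.18% of all measured genes). The high class gave 5 higher and 9 lower of 106 (6.41% and 5.23% of all 10573 genes under that setting). The class from the sum gave 8 higher and 5 lower of 73 (6.89% and 6.04% of all 9076 genes under that setting). At 1.5-fold 18 were higher and 21 lower (16.6% and 15.1% of all measured genes), and at 4-fold 3 were higher and 4 lower (2.66% and 2.31%). These settings keep fewer genes or move the threshold itself. Every probe set gave 11 higher and 19 lower of 140 (12.4% and 10.9% of all 18193 genes). Chromosome centring gave 8 higher and 14 lower of 127 (7.99% and 7.26% of all measured genes). Its higher genes were without Gsto2 and Slc48a1. Its lower genes held Ccs, named after its value was seen, at -1.08 in place of Aldh3a1. The SD between probe sets was 0.62 as reported, 0.96 with every probe set kept and 0.43 in the high class. If the values are natural logs, Slc7a11 stood at -1.76 on the log2 scale and 2 members still lay past 2-fold lower. Signal over background is not in the values, so weak probe sets could be recognised only by class.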
